A study of Homo sapiens with 8 samples.

Results

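The mitochondrial ribosomal protein genes were examined in side population (SP) and non-side population (NSP) cells of J82, a human bladder cancer cell line grown in DMEM with 10% FBS. The members were all protein-coding genes in the deposited table whose current symbol is MRPL or MRPS followed by a number, with or without a letter, which gave 76 of 57820 genes: 48 of the large subunit (MRPL) and 28 of the small subunit (MRPS). Each population was measured in 4 RNA-seq libraries. SP cells are those that exclude the dye Hoechst in a cell sorter, NSP cells are those of the same culture that keep it, and cells that took up the dead-cell dye 7-AAD were gated out. Both populations carry the genome of the 1 parental line, the labels name no drug treatment, and they do not say whether the 4 replicates were separate cultures, so each p-value measures the spread between these libraries, which may be technical. The study treats SP cells as the drug-resistant population, and the comparison asks which transcripts differ between the sorted populations.

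Mitochondria make 13 proteins from their own genome, all of them parts of the respiratory chain or ATP synthase, on a ribosome of their own. That ribosome pairs RNAs transcribed from mitochondrial DNA, the small subunit rRNA MT-RNR1 and the large subunit rRNA MT-RNR2, with proteins that are all encoded in the nucleus, made in the cytosol and imported. The small subunit holds the messenger RNA and its decoding site, and the large subunit forms peptide bonds and passes the new chain toward the inner membrane. Some of the proteins have a counterpart in the bacterial ribosome and others occur only in mitochondria. Symbols follow an older scheme: MRPS18A and MRPS30 sit in the large subunit of the assembled ribosome, and MRPS36 is now known as a part of the 2-oxoglutarate dehydrogenase complex. They are kept here under their symbols.

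The libraries held 1431823 to 1697218 counts in SP and 1489033 to 2073526 counts in NSP. These totals lie far below the number of reads that the methods state for each library. The library kit keeps the strand of the RNA, and the strand setting used in counting is not given in the sources used here. Across the table a lncRNA had more counts per kb than the gene across from it in 88.3% of 591 overlapping pairs, and MT-ND6, the 1 mitochondrially encoded protein gene on the other strand from the remaining 12, held most counts of these 13 genes in every library. A count here is therefore a count on the gene as deposited, and it was not shown to come from reads of the gene's own strand. The members took 0.183% to 0.218% of each library, or 2649 to 4030 counts per library and 26133 in all. In the labelled cell type, the epithelial keratin KRT8 had 47783 counts and KRT18 had 5472, the mesenchymal marker VIM had 5749, EPCAM had 3 and UPK3A had 0, and the leukocyte markers PTPRC and CD3E were at 0 in all 8 libraries. Among the other-cell markers, CD68 with 107 counts and GFAP with 71 were the ones above 1 count. Of the 8 tested epithelial, urothelial and mesenchymal markers 1 was called, KRT7, lower in SP at a log2 fold change of −1.35. Of these 8 markers 7 were below 0, with a median of −0.26, VIM was at −0.76 with an edgeR adjusted p of 0.0784, and DESeq2 and the fit with a replicate block each called 2. The 12 markers of the list summed to 3808 to 5196 CPM in SP and 5230 to 6913 CPM in NSP, where CPM are counts scaled to a TMM-normalized library of 1e+06 counts, and their part in the values of the members was not tested. Of the members, 54 (34 MRPL and 20 MRPS) passed the filter on low counts and were tested, and the remaining 22 did not pass it.

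A short stretch around the annotated start of transcription is shown for the members with the largest differences in either direction and for MRPS34, which had the most counts per kb in the small subunit, because the nuclear genes of the mitochondrial ribosome share a characteristic set of promoter motifs. Each line gives 60 bases before and 30 bases after the start, 5′ to 3′ on the gene's own strand, from RefSeq on GRCh38.p14. Capitals mark CCGGAAG or its reverse CTTCCGG, the core bound by ETS factors such as GABPA, and AAGATGGC or its reverse GCCATCTT, the core bound by YY1.
MRPL36, chr5:1799808-1799897, minus strand: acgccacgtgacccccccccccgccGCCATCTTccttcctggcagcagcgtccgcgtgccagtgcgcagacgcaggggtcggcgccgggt
MRPL54, chr19:3762622-3762711, plus strand: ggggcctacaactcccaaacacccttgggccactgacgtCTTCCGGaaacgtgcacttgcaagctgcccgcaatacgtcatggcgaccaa
MRPL49, chr11:65122123-65122212, plus strand: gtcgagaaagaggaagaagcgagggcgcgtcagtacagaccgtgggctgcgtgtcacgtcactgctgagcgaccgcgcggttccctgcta
MRPL47, chr3:179604609-179604698, minus strand: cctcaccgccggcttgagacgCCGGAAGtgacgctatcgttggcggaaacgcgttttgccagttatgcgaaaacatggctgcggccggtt
MRPS27, chr5:72320211-72320300, minus strand: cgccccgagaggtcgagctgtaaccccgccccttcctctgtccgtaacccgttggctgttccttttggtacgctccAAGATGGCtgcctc
MRPS5, chr2:95121779-95121868, minus strand: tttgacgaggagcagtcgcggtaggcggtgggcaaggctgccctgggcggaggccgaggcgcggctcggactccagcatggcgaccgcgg
MRPS23, chr17:57850015-57850104, minus strand: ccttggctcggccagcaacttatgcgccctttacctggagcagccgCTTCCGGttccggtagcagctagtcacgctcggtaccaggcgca
MRPS25, chr3:15065286-15065375, minus strand: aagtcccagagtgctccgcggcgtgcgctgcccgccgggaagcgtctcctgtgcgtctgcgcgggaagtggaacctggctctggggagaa
MRPS34, chr16:1773105-1773194, minus strand: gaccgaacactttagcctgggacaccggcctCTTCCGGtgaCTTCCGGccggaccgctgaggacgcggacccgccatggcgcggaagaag

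MRPL36 carries the YY1 core before its start and MRPS27 carries it after its start, while MRPL54, MRPL47 and MRPS23 each carry 1 ETS core and MRPS34 carries 2 within these 90 bases. MRPL49, MRPS5 and MRPS25 hold neither. Over the longer window from 250 bases before to 50 bases after the start, 67 of the 76 members had a RefSeq promoter, and both strands were searched. The ETS core was present in 28 of these 67 (41.8%), against 10.7% of all 27305 promoters of the same length, and the YY1 core was present in 19 (28.4%), against 3.03%. NRF1, another regulator of nuclear genes for mitochondria, was searched as CGCANGCG and matched in 12 members (17.9%), against 10.6% of all promoters. At least 1 of these 3 motifs was found in 45 members (67.2%), against 21.2%, in 28 of the large subunit and 17 of the small subunit. The GC-rich SP and KLF core GGGCGG was found in 41 members (61.2%, against 44.6%) and TATAAA in 2 (2.99%, against 11.95%). Of the 19 members with the YY1 core, the first match lay after the start in 14 (73.7%), against 51.1% of all promoters with that core. It lay between 60 bases before and 30 bases after the start in 14 (73.7%), against 57.2%, and in MRPL32, MRPS12, MRPL52 and MRPL47 it lay further upstream. Members on either side of 0 in the comparison of SP with NSP carried the same cores, for example the ETS core in both MRPL54, higher in SP, and MRPS23, lower in SP. A match of letters is a description of the window and not a measured binding site.

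No gene of either subunit was called in the main test of SP against NSP, which does not use the replicate number. With edgeR's quasi-likelihood test, Benjamini-Hochberg adjustment over all 9309 genes tested and a minimum fold change of 1.3, 0 of 34 MRPL genes and 0 of 20 MRPS genes were called higher or lower. The same rule called 152 of 9309 genes higher in SP (1.63%) and 189 lower (2.03%). At an unadjusted p under 0.05 there were 4 members of 54 (7.41%), MRPL49, MRPS27 and MRPS5 above 0 and MRPS23 below, where 16.4% of all tested genes passed. The lowest adjusted p among the members was 0.171. DESeq2 and limma voom also called 0 members, with 3 and 4 members at an unadjusted p under 0.05. Same-numbered SP and NSP libraries deviated together from their groups. With the replicate number as a block, edgeR called 2 of 54 members (3.70%), MRPL49 and MRPS25, where it called 12.9% of all tested genes. In that fit 3 members above 0 and 4 below had an unadjusted p under 0.05. The share of all tested genes at that p in the blocked fit is not given here. In these bulk libraries a smaller share of cells with a transcript and less of it per cell cannot be told apart.

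The differences were small and spread around 0. The median log2 fold change of SP over NSP was 0.08 for the 34 MRPL genes, of which 22 were above 0 and 12 below, and 0.02 for the 20 MRPS genes, of which 10 were above and 10 below. All 9309 tested genes had a median of 0.01. Log2 fold changes ranged from −0.54 to 0.56 in the large subunit and from −0.76 to 0.73 in the small subunit, and their SD over the 54 members was 0.30, against 0.44 over all genes. Only 2 members, MRPS27 and MRPS23, differed by more than 1.5 times in the estimate, while 8 were over the 1.3-fold line upward and 5 downward. Without SP replicate 4 the median of the 54 members was −0.06 and 25 of them were above 0, in place of 0.07 and 32 with all libraries.

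The 95% intervals give the differences that these libraries leave possible for each gene in the main fit. That fit does not use the replicate number, and no interval was taken from the blocked fit. With the block the standard error was 0.149 in place of 0.235 for MRPS25, and 0.367 in place of 0.340 for MRPS23. The interval included 0 for 50 of the 54 members, and it lay within a 2-fold change in both directions for 46 of them (85.2%) but within a 1.5-fold change for only 14. Standard errors of the log2 fold change ran from 0.146 for MRPS34 to 0.406 for MRPL48, with a median of 0.247. The highest upper bound was 1.34, for MRPS27, and the lowest lower bound was −1.48, for MRPS23. These bounds limit a change of each single gene. They rest on the spread between libraries, which over all genes exceeded counting noise, with 4.87 to 10.96 times the variation of counting alone between any 2 libraries of a group (chi-square over its degrees of freedom). This ratio pools all genes and was not computed for the members. The tested members had a median of 286.5 counts over all libraries, so counting noise is also part of their intervals.

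**Figure D1:**
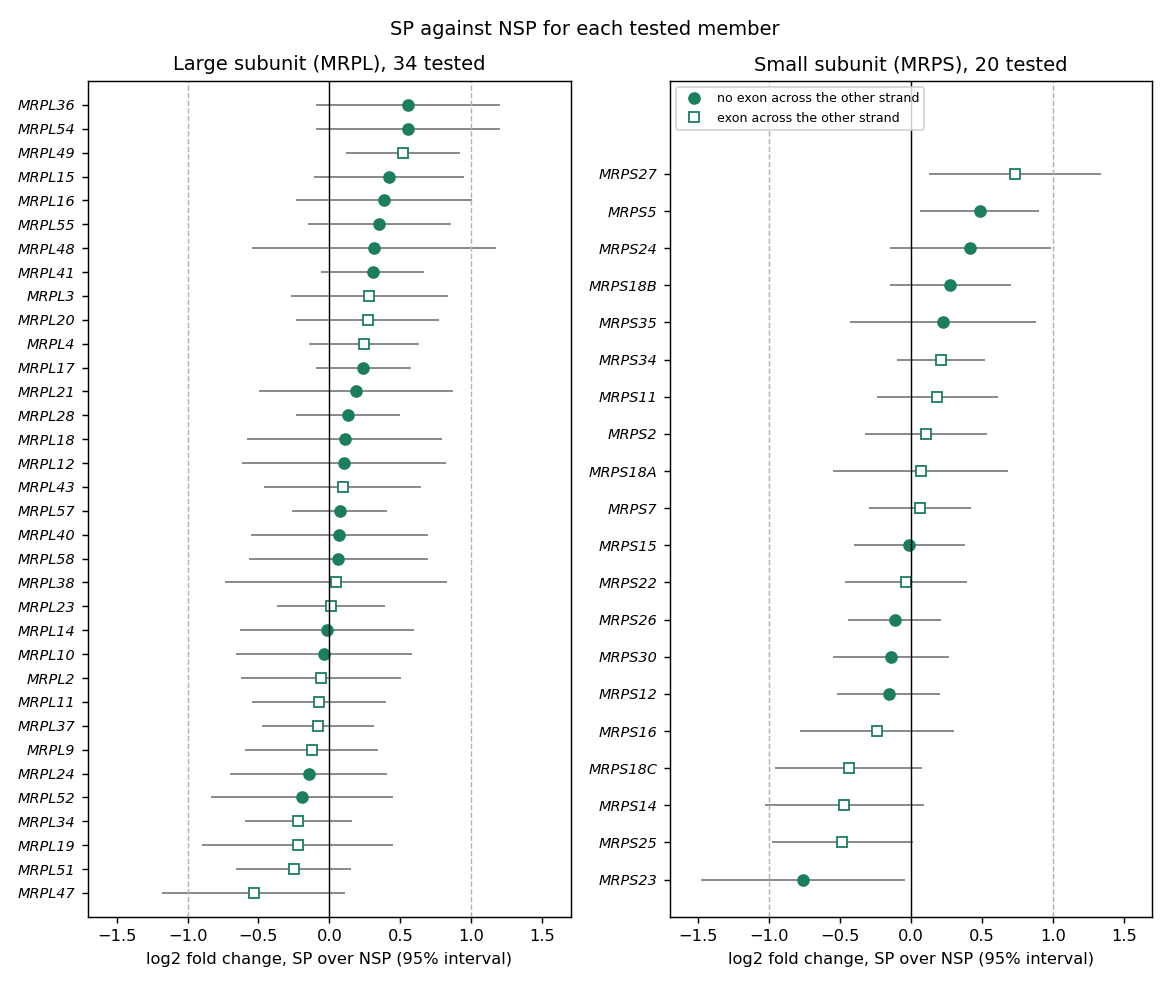
Log2 fold change of SP over NSP on the horizontal axis for the 34 tested MRPL genes (left) and the 20 tested MRPS genes (right), ordered by value, with 95% intervals as bars, dashed lines at a 2-fold change and open squares for genes whose exons overlap those of another gene in the opposite orientation. The points lie on both sides of 0, between −0.76 and 0.73, and 50 of the 54 intervals include 0. Points and intervals are those of the main fit, without the replicate block.

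In the large subunit, MRPL49 had the smallest p-value. It encodes a mitochondria-specific protein and stood at 72.8, 87.8, 54.1 and 78.03 CPM in SP replicates 1 to 4 and 53.2, 39.5, 51.7 and 60.2 CPM in NSP replicates 1 to 4. SP replicate 3 was below NSP replicate 4, so the groups overlapped, although SP was higher in each pair of libraries with the same number. Other members also differed in 1 direction in every such pair, among them MRPL36 and MRPS27 upward and MRPS23 and MRPS25 downward. The share of all genes that did so was not counted. For MRPL49 the log2 fold change was 0.52 ± 0.19 (SE, n = 4 per group), with an adjusted p of 0.171 in edgeR. With the replicate number as a block, which the shared deviations of same-numbered libraries allow, the log2 fold change was 0.52 ± 0.16 (SE) and the adjusted p 0.0186, and MRPL49 was then called. In that blocked fit 2 of 54 members were called (3.70%), and 12.9% of all tested genes.

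MRPL36, the counterpart of the smallest bacterial large subunit protein, measured 16.6, 9.38, 10.8 and 16.9 CPM in SP replicates 1 to 4 and 10.6, 6.91, 7.02 and 11.8 CPM in NSP replicates 1 to 4. Its groups overlapped at NSP replicates 1 and 4. MRPL54, a mitochondria-specific protein, measured 7.21, 13.4, 10.8 and 13.2 CPM in SP replicates 1 to 4 and 5.85, 6.91, 8.29 and 9.68 CPM in NSP replicates 1 to 4, again with overlap, since SP replicate 1 lay among the NSP values. The log2 fold changes were 0.56 ± 0.31 (SE, n = 4 per group) and 0.55 ± 0.3 (SE, n = 4 per group), each with an adjusted p of 0.394, and neither was called. Both genes were thinly counted, with 142 and 120 counts over the 8 libraries.

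At the lower end of the large subunit, MRPL47, the counterpart of a bacterial protein near the exit of the peptide tunnel, measured 13.7, 25.5, 13.5 and 19.9 CPM in SP replicates 1 to 4 and 17.02, 21.7, 42.7 and 24.2 CPM in NSP replicates 1 to 4. NSP replicate 3 stood well above the rest. Its log2 fold change was -0.54 ± 0.3 (SE, n = 4 per group), adjusted p 0.411, and it was −0.21 without NSP replicate 3. MRPL51, a mitochondria-specific protein, had a log2 fold change of -0.25 ± 0.19 (SE, n = 4 per group) and MRPL19, which has a bacterial counterpart, of -0.23 ± 0.32 (SE, n = 4 per group), with adjusted p-values of 0.562 and 0.794. The value of MRPL19 was 0.01 without SP replicate 3, where its level was lowest. That of MRPL51 was −0.15 without SP replicate 4. The groups overlapped in all 3 genes.

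In the small subunit, MRPS27 had the largest difference. It encodes a mitochondria-specific protein with helical repeats that bind RNA, and it measured 12.2, 22.1, 21.1 and 13.2 CPM in SP replicates 1 to 4 and 12.2, 12.3, 8.93 and 7.61 CPM in NSP replicates 1 to 4. SP replicates 2, 3 and 4 were above every NSP library, and SP replicate 1 lay between the 2 highest NSP libraries. The log2 fold change was 0.73 ± 0.29 (SE, n = 4 per group), with a 95% interval of 0.12 to 1.34 and an adjusted p of 0.203. Per kb of exon MRPS27 had 9.22 counts, a low level for a tested member, with its 180 counts divided over an annotated exon length of 19524 bases.

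MRPS5, the counterpart of a bacterial protein at the entry of the messenger RNA channel, measured 43.2, 40.9, 37.9 and 62.6 CPM in SP replicates 1 to 4 and 34.04, 31.6, 29.98 and 35.95 CPM in NSP replicates 1 to 4. Every SP library was above every NSP library, and SP replicate 4 was the highest. Its log2 fold change was 0.48 ± 0.2 (SE, n = 4 per group), adjusted p 0.229, and it was 0.30 without SP replicate 4. MRPS18B was the other member without overlap, at 26.7, 25.5, 25.4 and 24.3 CPM in SP replicates 1 to 4 and 19.7, 22.7, 23.6 and 17.98 CPM in NSP replicates 1 to 4, with a log2 fold change of 0.27 ± 0.2 (SE, n = 4 per group) and an adjusted p of 0.542. Thus 2 of 54 members (3.70%) had SP values all above the NSP values and 0 had them all below, where 4.78% and 4.97% of all tested genes did. MRPS24, which has a bacterial counterpart, measured 36.7, 20.1, 21.1 and 24.3 CPM in SP replicates 1 to 4 and 23.4, 19.3, 21.7 and 11.1 CPM in NSP replicates 1 to 4, with the groups overlapping and a log2 fold change of 0.42 ± 0.27 (SE, n = 4 per group), adjusted p 0.482, and of 0.20 without SP replicate 1.

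Among the small subunit genes below 0, MRPS23, a mitochondria-specific protein, measured 7.21, 3.35, 4.87 and 4.42 CPM in SP replicates 1 to 4 and 10.1, 9.88, 6.38 and 6.91 CPM in NSP replicates 1 to 4. SP replicate 1 lay above NSP replicates 3 and 4. The log2 fold change was -0.76 ± 0.34 (SE, n = 4 per group), the adjusted p 0.269, and its 89 counts over 8 libraries were the fewest of any tested member.

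MRPS25, also mitochondria-specific, measured 71.3, 121, 87.2 and 86.9 CPM in SP replicates 1 to 4 and 72.3, 124, 177 and 141 CPM in NSP replicates 1 to 4. Replicate 1 was nearly equal in SP and NSP, and NSP replicate 3 was the highest. Its log2 fold change was -0.49 ± 0.23 (SE, n = 4 per group), adjusted p 0.32, and it was −0.29 without NSP replicate 3. With the replicate block it was −0.46 ± 0.15 (SE), with an adjusted p of 0.0246, and MRPS25 was the second member called in that fit. MRPS14, the counterpart of a bacterial protein of the small subunit head, measured 10.1, 10.1, 11.9 and 11.8 CPM in SP replicates 1 to 4 and 12.8, 11.9, 18.5 and 18.7 CPM in NSP replicates 1 to 4, with overlap limited to SP replicate 3 and NSP replicate 2, and had a log2 fold change of -0.47 ± 0.26 (SE, n = 4 per group), adjusted p 0.405.

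**Figure D2:**
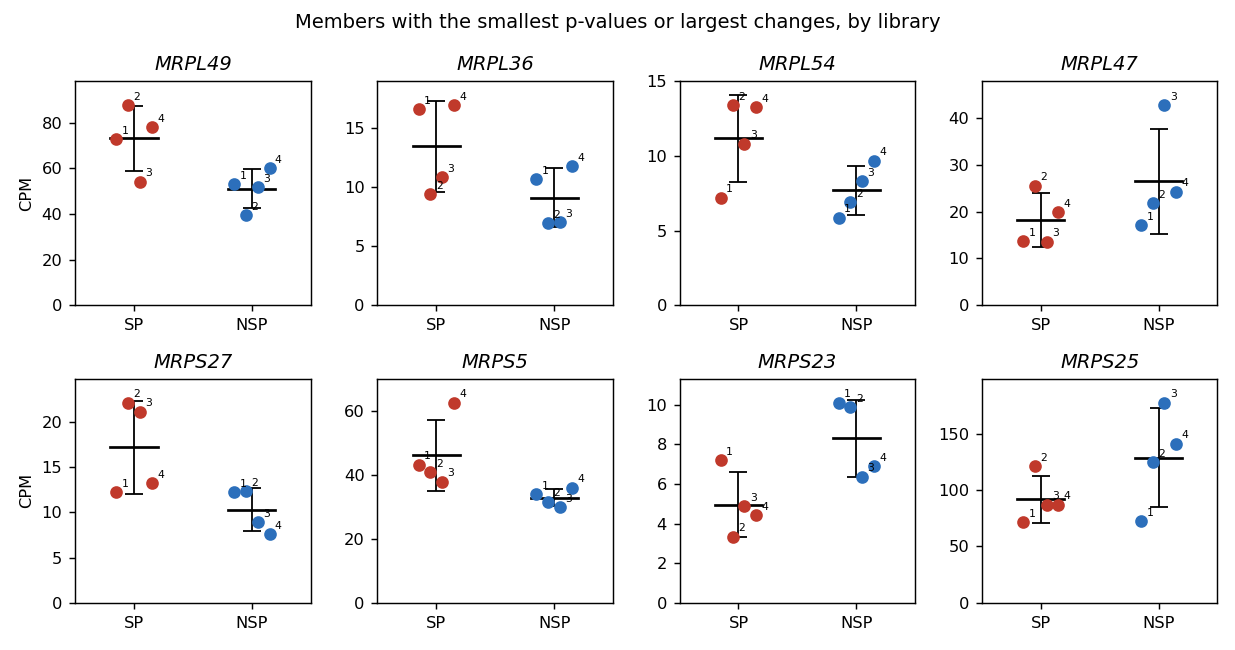
CPM in each SP and NSP library (points, numbered by replicate) with the mean and SD (bars, n = 4) for 8 members with the largest differences or the smallest p-values. SP and NSP points overlap in every panel but that of MRPS5. The difference between the group means exceeds both group SDs in every panel but those of MRPL47 and MRPS25, and none of the 8 genes was called in the main test.

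The members differed far more from each other than between the populations. Per kb of exon and summed over all libraries, they ranged from 0.420 to 1960 counts, with a median of 85.7 in the large subunit and 67.7 in the small subunit. The exon lengths came from a later annotation than the one used in counting. MRPL41 had the most counts per kb (1960), followed by MRPL34 (1562) and MRPS34 (1283), then MRPS26 (1032), MRPS12 (479), which sits at the decoding site, and MRPL51 (385). The 3 members with the most counts, MRPL34, MRPS25 and MRPS34, held 19.9% of all member counts. MRPS34 and MRPS26 had the smallest standard errors of the tested members, 0.146 and 0.155 on the log2 scale, while that of MRPS25 was 0.235.

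MRPL41, a mitochondria-specific protein, measured 88.6, 83.1, 91.5 and 128 CPM in SP replicates 1 to 4 and 86.2, 80.99, 81.6 and 67.1 CPM in NSP replicates 1 to 4. SP replicate 4 was the highest and NSP replicate 4 the lowest, and the log2 fold change was 0.30 ± 0.17 (SE, n = 4 per group), adjusted p 0.41, or 0.14 without SP replicate 4. MRPL34, with a bacterial counterpart, measured 181, 170, 121 and 203 CPM in SP replicates 1 to 4 and 222, 223, 164 and 173 CPM in NSP replicates 1 to 4. Its SP and NSP values interleaved, with a log2 fold change of -0.22 ± 0.18 (SE, n = 4 per group), adjusted p 0.595, or −0.085 without SP replicate 3.

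MRPS34, a mitochondria-specific protein, measured 128, 125, 104 and 109 CPM in SP replicates 1 to 4 and 100, 99.3, 109 and 94.7 CPM in NSP replicates 1 to 4. Only NSP replicate 3 reached the SP range, and the log2 fold change was 0.21 ± 0.15 (SE, n = 4 per group), adjusted p 0.523. MRPS26, mitochondria-specific as well, had a log2 fold change of -0.12 ± 0.15 (SE, n = 4 per group) and MRPS12 of -0.16 ± 0.17 (SE, n = 4 per group), with adjusted p-values of 0.776 and 0.711 and overlapping groups. Without SP replicate 1 they were −0.055 and −0.056. For MRPS26 the 95% interval of -0.45 to 0.21 stayed within a 1.5-fold change in both directions.

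The 22 members that did not pass the filter, 14 of the large subunit and 8 of the small subunit, had 2 to 102 counts over the 8 libraries and were not tested. MRPL30, MRPS17 and MRPL53 had 3 or fewer counts in all. No member was at 0 in every library. MRPL27, MRPS9 and MRPL32 were the best counted of these 22, at 102, 73 and 65 counts. A fit with no filter, which admits all 76 members, also called 0 of them.

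Summed over its members, each subunit had overlapping levels in the 2 populations. The 48 MRPL genes together measured 1105, 1115, 1162 and 1296 CPM in SP replicates 1 to 4 and 1139, 1113, 1059 and 1081 CPM in NSP replicates 1 to 4, and only SP replicates 3 and 4 were outside the NSP range. The 28 MRPS genes together measured 803, 899, 839 and 942 CPM in SP and 843, 878, 925 and 907 CPM in NSP, and the NSP range lay inside the SP range. On the log2 scale the summed level differed by 0.09 for MRPL and by −0.03 for MRPS, against SDs of 0.11 and 0.10 between SP libraries and of 0.046 and 0.058 between NSP libraries. With 1 library left out, the MRPL difference ranged from 0.039 without SP replicate 4 to 0.115 without SP replicate 1, and the MRPS difference from −0.069 without SP replicate 4 to 0.008 without SP replicate 1. All 76 members together measured 2041 ± 140 CPM in SP and 1986 ± 3.69 CPM in NSP (mean ± SD, n = 4). The small NSP SD comes from offsetting sums, since NSP libraries with a higher MRPL sum had a lower MRPS sum. Taken apart, the NSP sums of MRPL and MRPS had SDs of 35.0 and 35.8 CPM. The ratio of the MRPL sum to the MRPS sum was 1.24 to 1.38 in SP and 1.15 to 1.35 in NSP.

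Counts on the genes that this ribosome translates did differ. Of the 13 mitochondrially encoded protein genes, 12 were called higher in SP by edgeR, with a median log2 fold change of 1.416 and a range over all 13 of 0.88 to 2.01, and no 95% interval of a tested MRP gene reached 1.416. Leaving out NSP replicate 1, 2 or 3 or SP replicate 4 reduced the calls over these genes and the other mitochondrial lists from 13 to 7, 5, 6 and 6. MT-ND6, which lies on the other strand from the remaining 12, took 70.2% to 73.4% of the counts on these 13 genes in SP and 78.9% to 83.6% in NSP. The other 12 summed to 15784, 8063, 10136 and 18846 CPM in SP replicates 1 to 4 and 4210, 2656, 3608 and 7445 CPM in NSP replicates 1 to 4, without overlap. The same 12 genes were at 4.003 to 8.42 times the summed MRP level in SP and at 1.33 to 3.75 times in NSP. With MT-ND6 added, the 13 genes summed to 29992 to 70816 CPM in SP and 13979 to 35237 CPM in NSP, with overlap. They were then at 14.9 to 31.6 times the summed MRP level in SP and 7.02 to 17.7 times in NSP, again overlapping. Taken singly, 5 of the 13 had every SP value above every NSP value (4.78% of all tested genes). DESeq2 called 10 of the 13 and limma voom 12. With the replicate block all 13 were called higher (5.89% of all tested genes).

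**Figure D3:**
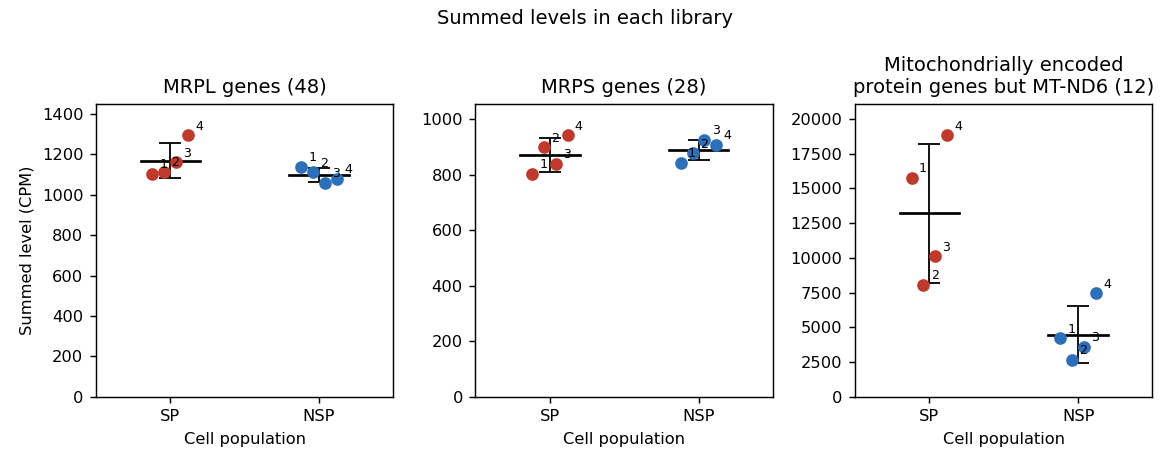
Summed CPM in each library (points, numbered by replicate) with the mean and SD (bars, n = 4) for the 48 MRPL genes, the 28 MRPS genes and the 12 mitochondrially encoded protein genes other than MT-ND6, each on its own axis from 0. The MRPL and MRPS sums overlap between SP and NSP. The sums of the 12 mitochondrially encoded genes do not, with SP at 8063 CPM or more and NSP at 7445 CPM or less. With MT-ND6 added, which is not drawn here, they overlap.

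Counts on the 2 rRNA genes of the mitochondrial ribosome had log2 fold changes between the medians of the MRPL and MRPS genes and that of the mitochondrially encoded protein genes. Whether these counts came from reads of each gene's own strand was not tested. MT-RNR1 measured 992, 782, 904 and 1368 CPM in SP replicates 1 to 4 and 710, 484, 557 and 1119 CPM in NSP replicates 1 to 4, and the groups overlapped at NSP replicate 4. The log2 fold change was 0.50 ± 0.24 (SE, n = 4 per group), adjusted p 0.314. MT-RNR2 measured 3428, 2037, 2242 and 3455 CPM in SP replicates 1 to 4 and 1566, 992, 1119 and 2310 CPM in NSP replicates 1 to 4, with overlap again at NSP replicate 4, and a log2 fold change of 0.90 ± 0.25 (SE, n = 4 per group), adjusted p 0.0617. Neither rRNA was called in edgeR without the block, and both were called with it, at adjusted p-values of 0.00101 and 5.9e-09. DESeq2 and limma voom each called MT-RNR2 without a block. The libraries came from an mRNA kit, and how far it carried over rRNA in each library was not tested.

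Other nuclear genes of the mitochondrial ribosome and its assembly gave few changes. The 5 ribosome proteins under other names, DAP3, PTCD3, CHCHD1, AURKAIP1 and GADD45GIP1, had 0 calls and a median log2 fold change of 0.15. GADD45GIP1, a large subunit protein also known as a nuclear cell cycle regulator, measured 199, 218, 230 and 205 CPM in SP replicates 1 to 4 and 181, 170, 177 and 161 CPM in NSP replicates 1 to 4, with no overlap, a log2 fold change of 0.31 ± 0.13 (SE, n = 4 per group) and an adjusted p of 0.265, the only one of the 5 at an unadjusted p under 0.05. Of 24 assembly and rRNA modification factors 13 were tested and 1 was called. This was MALSU1, which docks on the large subunit late in its assembly and keeps the small subunit off, at 124, 166, 115 and 139 CPM in SP replicates 1 to 4 and 187, 200, 210 and 223 CPM in NSP replicates 1 to 4. All SP values were below all NSP values, with a log2 fold change of -0.59 ± 0.15 (SE, n = 4 per group) and an adjusted p of 0.0419. The adjusted p was above 0.05 in 7 of the 8 fits that left out 1 library, from 0.0536 to 0.108, and it was 0.0370 without SP replicate 2. Exons of MALSU1 share 1521 bases with exons of IGF2BP3 on the other strand, and what part those reads had in its counts was not tested.

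Among the steps that surround translation, 0 of 10 tested translation factors, 0 of 15 enzymes of aminoacyl-tRNA synthesis, 0 of 4 genes of mitochondrial transcription and RNA processing and 0 of 6 biogenesis regulators were called by edgeR, with medians of 0.01, 0.02, −0.17 and 0.08. DESeq2 and limma voom also called 0 in these lists. At an unadjusted p under 0.05 there was 1 translation factor, MRRF, the ribosome recycling factor, at a log2 fold change of 0.68 ± 0.29 (SE, n = 4 per group) with an adjusted p of 0.249 and no overlap between groups. None was found for aminoacyl-tRNA synthesis and for transcription and 1 among the regulators, MYC, at 0.62 ± 0.23 (SE, n = 4 per group), adjusted p 0.169, which was called with the replicate block at an adjusted p of 0.00533. YY1 and GABPA, whose cores are common in the member promoters, had log2 fold changes of -0.03 ± 0.14 (SE, n = 4 per group) and -0.23 ± 0.21 (SE, n = 4 per group), with adjusted p-values of 0.952 and 0.646.

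The 63 tested cytosolic ribosomal protein genes had a median log2 fold change of −0.02, 29 of them above 0, and 0 calls, with 1 at an unadjusted p under 0.05. The 61 tested nuclear genes for oxidative phosphorylation subunits, which join the products of mitochondrial translation in the same complexes, had a median of 0.30, with 51 above 0, 15 at an unadjusted p under 0.05, all higher in SP (8.13% of all tested genes were), and 0 calls in edgeR, 0 in limma voom and 1 in DESeq2. With the replicate block 1 cytosolic ribosomal gene and 6 oxidative phosphorylation genes were called, all higher, as were 5.89% of all tested genes. Side by side on the same scale the medians were 0.08 for MRPL, 0.02 for MRPS, 0.30 for nuclear oxidative phosphorylation subunits and 1.416 for mitochondrially encoded proteins. These lists were compared by counts and medians only, with no test between them.

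**Figure D4:**
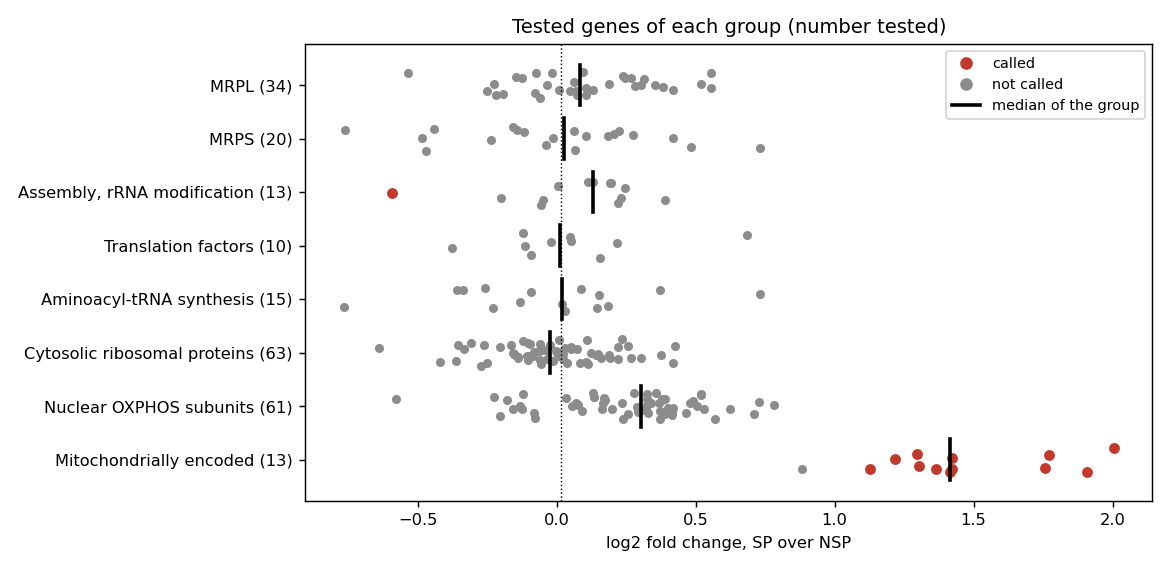
Log2 fold change of SP over NSP for each tested gene (points, spread vertically at random) of 8 groups of genes, with the number tested in brackets, group medians as black bars and the median of all tested genes as a dotted line. Called genes are in red. The MRPL and MRPS points gather around the dotted line with medians of 0.08 and 0.02, and the mitochondrially encoded genes lie to the right with a median of 1.416.

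Strand matters for reading these levels. Exons of 30 of the 76 members (18 MRPL and 12 MRPS) overlap exons of a gene on the other strand. Among tested genes this held for 26 of the 54 members and for 57.4% of all genes. Across the whole table, 591 pairs of a lncRNA with at least 50% of its exon length opposite another gene and at least 100 counts were found, and in 88.3% of them the lncRNA had more counts per kb than its partner. The members followed this: of 10 lncRNA partners in the table, 8 had more counts per kb than the member. MRPS2, with 699 counts, lies across ENSG00000226706 with 6603, MRPL9 with 280 counts lies across ENSG00000269621 with 3965, and MRPS16 with 242 counts lies across DNAJC9-AS1 with 3766. MRPL20 and MRPS9, with 469 and 73 counts, face MRPL20-AS1 and MRPS9-AS1 with 1815 and 1168. Of 18 protein-coding partners, 8 had more counts per kb than the member.

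The members with and without such an overlap were set side by side, with no test between them. The 26 tested members with an exon across the other strand had a median log2 fold change of −0.01, and the 28 without one had 0.12. Their median levels over all members were 98.2 and 46.7 counts per kb. No partner gene was called. MRPS25 shares 7157 exon bases with NR2C2, whose log2 fold change was −0.15 ± 0.21 (SE), MRPL49 shares 356 with SYVN1 at 0.38 ± 0.15, MRPL47 overlaps ACTL6A at 0.05 ± 0.26, and MRPS34 shares 341 with EME2 at −0.20 ± 0.18. With all genes that have such an exon left out of the fit, 19 MRPL and 9 MRPS genes were tested and 0 were called, and the MRPS median was −0.07. Whether reads were assigned to the strand they came from was not tested.

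**Figure D5:**
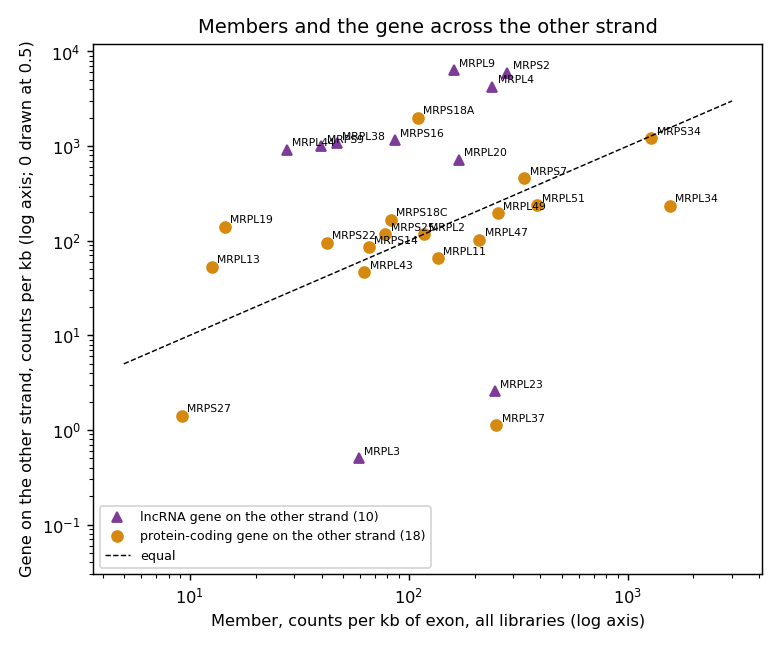
Counts per kb of exon over all 8 libraries for members (horizontal, log axis) and for the gene whose exons lie across them on the other strand (vertical, log axis, 0 drawn at 0.5), with lncRNA genes as triangles, protein-coding genes as circles and equal levels as a dashed line. Of the 10 lncRNA partners 8 lie above the line, and of the 18 protein-coding partners 8 do.

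The members are scattered over 21 chromosomes, with 8 on chromosome 2 as the most on any chromosome. Positions here are those of GENCODE on GRCh37. There were 7 pairs of neighbouring members within 1000 kb, of which MRPL46 (chromosome 15, 89002708 to 89010621, minus strand) and MRPS11 (chromosome 15, 89010684 to 89024007, plus strand) start head to head, 63 bases apart. MRPL46 had 43 counts and was not tested, and MRPS11 had 413 and a log2 fold change of 0.19 ± 0.2 (SE, n = 4 per group). A protein-coding gene started on the other strand within 1000 bases of 27 members (35.5%), against 13.2% of the 19404 protein-coding genes in the table.

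Some of these head-to-head partners work in the same organelle. MRPL36 and NDUFS6, an assembly and accessory subunit of complex I, start 41 bases apart and had log2 fold changes of 0.56 ± 0.31 and 0.37 ± 0.17 (SE). MRPL47 and NDUFB5, another complex I subunit, also start 41 bases apart, with −0.54 ± 0.30 and 0.26 ± 0.47. MRPL49 starts 6 bases from FAU, which encodes a cytosolic small subunit protein fused to a ubiquitin-like domain, and these had 0.52 ± 0.19 and 0.30 ± 0.16. MRPS12 starts 181 bases from SARS2, the mitochondrial seryl-tRNA synthetase, with −0.16 ± 0.17 and −0.77 ± 0.37. The pairs MRPL36 and NDUFS6, MRPL49 and FAU, and MRPS12 and SARS2 had the same sign and the pair of MRPL47 and NDUFB5 had opposite signs, and none of these 8 genes was called.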

How the data were processed

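RNA was extracted from sorted SP and NSP cells of J82, and libraries were made with an mRNA kit and sequenced as single-end 50-bp reads. The authors aligned the reads to hg19 with STAR and counted them on GENCODE genes with featureCounts, and the deposited values are raw counts per gene and library. The kit keeps RNA strand, but the strand setting in counting and how multiply matching reads were handled are not given in the sources used here. No normalized values were used, and no column of other samples was present.

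Symbols, exons and strands came from a GENCODE annotation lifted to GRCh37, matched on gene identifiers without version (96.1% of genes, the rest holding 4.06% of counts). The authors counted on an earlier GENCODE release. The exon lengths, counts per kb and exon overlaps given here may therefore differ from those behind the counts. MRPL45 and MRPS21 were not matched by their current identifiers and are not analysed here. The counts were tested across the whole table with edgeR 4.0.16 in R 4.3.3 (TMM, filterByExpr at count 10 and total 15, quasi-likelihood test, no covariate), and a gene counts as called when its Benjamini-Hochberg adjusted p is under 0.05 and its fold change over 1.3. The script was tested on simulated data. DESeq2 1.42.0, limma voom (limma 3.58.1), other normalizations and filters, a replicate block and fits without single libraries or groups of genes were alternatives. SP and NSP libraries with the same number deviated together from their groups, with correlations of 0.383, 0.205, 0.323 and 0.323, so the numbers were read as pairing them. Total counts per library (1431823 to 2073526) lie far below the reads stated in the methods, a gap that was not explained by the deposited values, and intervals cover the spread between these libraries.

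The genes named are the called genes, in each subunit the 3 largest and 3 smallest fold changes, the 3 smallest p-values and the 3 highest levels per kb, members without overlap, and the mitochondrial rRNAs. Members below the filter, strand partners, head-to-head genes and single genes of the other lists were chosen after their values were seen. The members and lists were chosen with earlier results of these data known.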

Additional observations from a re-analysis of the deposited data

Results flagged for a closer look

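Among 70 groups of 4 libraries examined (the members and other genes named by the rule, in SP and in NSP), 1 held a library far from the rest, where chance gives about 1 in 20. MT-ATP6, a mitochondrially encoded ATP synthase subunit, stood at 257 CPM in NSP replicate 4 and at 102 to 126 CPM in the other 3 NSP libraries, so that the gap to the nearest of them was 0.843 of the group's whole range (Dixon's ratio, over its 95% critical value). No MRPL or MRPS gene was flagged in this way.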

How the results depend on the processing

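The 0 calls held for both subunits under every alternative run except the replicate block, under which 1 MRPL gene (MRPL49) and 1 MRPS gene (MRPS25) were called. The 13 calls over the other mitochondrial lists became 1 without mitochondrially encoded genes, where those genes are no longer tested, and ranged from 5 to 14 when 1 library was left out. With 1 library left out the MRPL median log2 fold change ranged from −0.016 to 0.191, its lowest without SP replicate 4 and its highest without SP replicate 1, and the MRPS median from −0.101 to 0.0895. Without genes with an exon across the other strand the MRPS median was −0.0731. The log2 fold change of MRPL19 ranged from −0.464 to 0.015 with 1 library left out and was above 0 without SP replicate 3. The cause was not tested for these. Placing MRPS18A and MRPS30 in the large subunit, an alternative chosen after seeing the data, changed no call and left the medians at 0.07 and 0.02. For single named genes, 521 of the alternatives kept direction and side of the threshold, 38 lost a call and 8 gained one. Beyond MRPL49, MRPS25 and the rRNAs, the block changed no call of a gene named by the rule. The main interval lay within a 1.5-fold change for 14 of the 54 tested members, and the 22 members below the filter, at 2 to 102 counts in all, were left untested.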
